A study of Arabidopsis thaliana with 9 samples.

Results

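The expression of photorespiration genes was followed across stamens, gynoecium and leaf of Arabidopsis thaliana by RNA sequencing, all in the cultivar Col-0, a common laboratory line. The 10 genes were chosen by name, as loci of the deposited count table, and make up 10 of its 32833 loci: PGLP1, GOX1, GOX2, GOX3, GGT1, AGT1, GLDP1, GLDP2, SHM1 and HPR1. The male group holds 3 libraries of stamens, the female group 3 libraries of gynoecium (the organ that bears the ovules), and 3 libraries come from leaf. All groups are untreated Col-0 and carry the same stage label, flower bud differentiation, and the floral material is described as immature buds. The series' design text speaks of male and female gametophytes, whereas the labels of the samples name whole organs. No label gives the age of the plants, the number of plants in a library, or whether replicate libraries stem from different plants, so p-values measure the spread between these libraries, which may be technical.

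Photorespiration begins when Rubisco, the carbon-fixing enzyme, binds oxygen in place of carbon dioxide and forms phosphoglycolate, a compound that the Calvin cycle cannot use. The pathway turns this compound back into glycerate through steps in the chloroplast, the peroxisome and the mitochondrion, with release of carbon dioxide and ammonia in the mitochondrion. It is best known as a pathway of green leaves, where its enzymes are abundant, and some of them also serve one-carbon and amino acid metabolism in other tissues.

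Library depth lay between 16042169 and 18756860 counts. Levels are given as CPM, counts scaled to a common library size with TMM factors, and 3 counts, the limit that a count of 0 allows, were worth 0.126 to 0.229 CPM. Limits of this kind cover counting error only. The marker genes matched the tissue labels. The summed level of 7 leaf markers was 3436 to 3469 CPM in stamens and 2792 to 2985 CPM in gynoecium, against 64370 to 68130 CPM in leaf. The 6 stamen markers summed to 4963 to 5067 CPM in stamens, 19.1 to 20.8 CPM in gynoecium, with AHA9 and QRT3 at 0, and at most 0.0712 CPM in leaf, with AMS, AP3, MS2, PI and QRT3 at 0. The 5 gynoecium markers summed to 1.06 to 1.97 CPM in stamens, with STY1 at 0, and 254 to 264 CPM in gynoecium, and all 5 were at 0 in leaf. AP1, a marker of sepals and petals, stood at 0.869 to 0.943 CPM in stamens, 0.259 to 0.59 CPM in gynoecium and 0 in leaf.

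Together the 10 genes took 0.136 ± 0.0015% of all counts in stamens and 0.101 ± 0.0011% in gynoecium, against 1.09 ± 0.0055% in leaf (mean ± SD, n = 3 each). The leaf share was 8.01 times that of stamens and 10.8 times that of gynoecium, and the stamen share was 1.35 times that of gynoecium. No library of one tissue reached the range of another. The exact two-sided permutation test gave p = 0.1 in each of the 3 comparisons, the smallest value that 3 libraries against 3 allow. In bulk tissue, fewer green cells and less RNA of these genes per cell cannot be told apart, and the leaf markers given above fell in the same organs. Their part in the results was not tested.

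**Figure D1:**
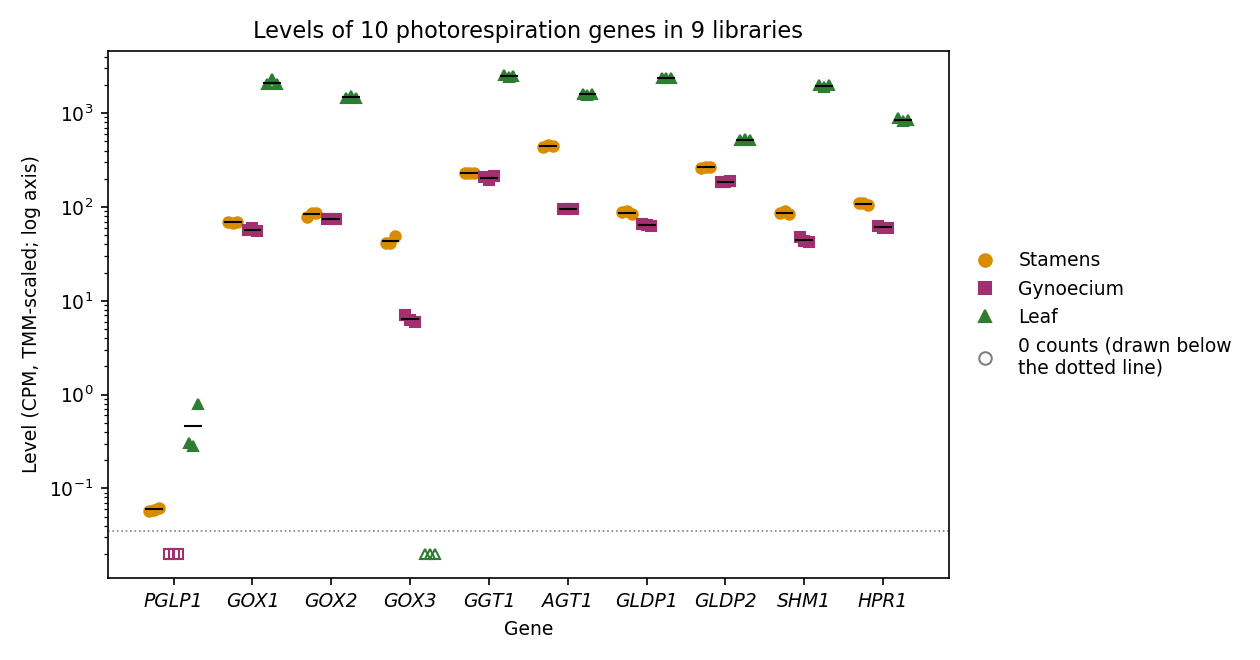
Level of the 10 photorespiration genes in each of the 9 libraries, in CPM on a log axis, with stamens (circles), gynoecium (squares) and leaf (triangles). Each point is 1 library, black bars are means of groups with a count in every library, and open points below the dotted line are libraries with 0 counts. GOX3 is the one gene with a count in both floral organs and 0 counts in leaf, and GOX1, GOX2, GGT1, AGT1, GLDP1, GLDP2, SHM1 and HPR1 are highest in leaf.

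PGLP1 (AT5G36700) encodes phosphoglycolate phosphatase, the chloroplast enzyme of the first step. It had 1, 1 and 1 counts in stamens, 0, 0 and 0 in gynoecium, and 4, 4 and 11 in leaf, and it did not pass the filter on low counts. AT5G36790, a second locus on the same chromosome, had 31, 39 and 34 counts in stamens, 30, 41 and 30 in gynoecium, and 250, 293 and 266 in leaf. The coding sequences of the loci were identical over all 1089 bases. In the exons of each locus, 100% of the windows of 50 and of 100 bases also occur elsewhere in the genome. How the authors treated reads with several matches is not given in the sources used here, so the counts of both loci are uncertain. Those of PGLP1 cannot be read as low expression. The stretches below, coding bases 151 to 210 of each, show the identity. They and the other sequences printed here were read from the RefSeq TAIR10.1 assembly, 5′ to 3′, and in the coding stretches capitals mark bases that differ between the copies, of which this pair has none.
PGLP1, chromosome 5: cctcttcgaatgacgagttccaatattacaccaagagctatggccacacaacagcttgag
AT5G36790, chromosome 5: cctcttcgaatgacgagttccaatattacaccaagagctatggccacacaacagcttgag

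Summed over both loci, the phosphatase stood at 2.12 ± 0.253 CPM in stamens and 1.47 ± 0.337 CPM in gynoecium, against 20.1 ± 0.921 CPM in leaf (SD, n = 3 each). The sum was lower in stamens than in leaf by a log2 fold change of -3.24 (edgeR quasi-likelihood test, adjusted p = 1.52e-28) and lower in gynoecium than in leaf by -3.77 (adjusted p = 6.33e-32). Every leaf library lay above all libraries of both floral organs. Whether the sum holds all reads of the pair is not known.

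GOX1 (AT3G14420), GOX2 (AT3G14415) and GOX3 (AT4G18360) encode glycolate oxidases, which turn glycolate into glyoxylate and hydrogen peroxide. GOX1 and GOX2 are the leaf peroxisomal enzymes of photorespiration. The coding sequences of GOX1 and GOX2 were 92.4% identical, with 84 of 1104 aligned bases different, and those of GOX3 were 76.5% identical to GOX1 and 77.1% to GOX2. No window of 50 bases within an exon of any of the 3 genes occurs elsewhere in the genome, although the spliced coding sequences of GOX1 and GOX2 have a run of 68 bases in common. The stretches below, coding bases 178 to 237 of each, are shown because the reads of this pair are told apart by such differences, 5 in these 60 bases.
GOX1, chromosome 3: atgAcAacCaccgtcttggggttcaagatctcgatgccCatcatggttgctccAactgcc
GOX2, chromosome 3: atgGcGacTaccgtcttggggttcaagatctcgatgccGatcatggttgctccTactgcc

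GOX1 was expressed at 68.9, 68.2 and 68.8 CPM in stamens and at 56.4, 59.4 and 55.4 CPM in gynoecium, against 2049.9, 2288 and 2026 CPM in leaf. Its level was 30.9-fold lower in stamens than in leaf (log2 fold change -4.95, SE 0.043, edgeR adjusted p = 2.79e-63) and 37.2-fold lower in gynoecium than in leaf (-5.22, adjusted p = 2.69e-64). The leaf libraries were far above the floral ones, and on this scale the stamen libraries lay just above the gynoecium libraries. GOX1 shares 1.11% of its exon bases with AT3G14430, a gene model on the opposite strand, and the strand setting of the counting is not given in the sources used here.

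GOX2 had the same order of tissues, with 79.1, 85.6 and 85.8 CPM in stamens and 74.0, 75.2 and 73.6 CPM in gynoecium, against 1466, 1519 and 1463 CPM in leaf. It was 17.8-fold lower in stamens than in leaf (log2 fold change -4.15, SE 0.038, edgeR adjusted p = 5.13e-67) and 19.97-fold lower in gynoecium than in leaf (-4.32, adjusted p = 6.24e-68). The groups did not overlap, and the gap between the floral organs was small beside that to leaf. The share of all genes without such overlap was not counted. Lack of overlap, here and for the genes below, is thus description only.

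GOX3 ran the other way, with 41.2, 40.9 and 49.0 CPM in stamens and 7.0, 6.17 and 5.97 CPM in gynoecium, against 0 counts in all 3 leaf libraries. Set against 3 counts per leaf library, it was at least 199.7-fold higher in stamens than in leaf (edgeR adjusted p = 4.34e-42) and at least 29.2-fold higher in gynoecium than in leaf (adjusted p = 4.75e-25). Stamens and gynoecium did not overlap. GOX3 was the one gene of the 9 tested that was higher in a floral organ than in leaf.

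Of the summed glycolate oxidase FPKM (a level per length of transcript), GOX3 made up 20.1 ± 1.45% in stamens and 4.07 ± 0.354% in gynoecium, and it was listed at 0 in leaf. On counts, the log2 ratio of GOX3 to the sum of GOX1 and GOX2 was -1.80 ± 0.13 in stamens and -4.37 ± 0.128 in gynoecium (SD, n = 3 each), and it is undefined in leaf. The log2 ratio of GOX2 to GOX1 was 0.28 ± 0.073 in stamens and 0.38 ± 0.036 in gynoecium, against -0.51 ± 0.067 in leaf, so its sign differed between the floral organs and leaf. Ratios within a library do not depend on how libraries are scaled. Each of these ratios differed between tissues with no overlap, at the smallest p of the exact two-sided permutation test, 0.1 (0.117 adjusted over 7 ratio comparisons).

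GGT1 (AT1G23310) encodes the peroxisomal glutamate:glyoxylate aminotransferase, which makes glycine from glyoxylate. It was expressed at 229, 233 and 228 CPM in stamens and at 207, 194 and 212 CPM in gynoecium, against 2573, 2427 and 2514 CPM in leaf. All leaf libraries lay above the floral ones, by 10.9-fold relative to stamens (stamens over leaf, log2 fold change -3.45, SE 0.035, edgeR adjusted p = 2.08e-64) and 12.3-fold relative to gynoecium (gynoecium over leaf, -3.62, adjusted p = 2.07e-65).

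AGT1 (AT2G13360) encodes the peroxisomal serine:glyoxylate aminotransferase, which uses serine from the mitochondrion to make a further glycine and leaves hydroxypyruvate. Its level was 438, 459 and 452 CPM in stamens and 94.4, 95.4 and 96.3 CPM in gynoecium, against 1612, 1545 and 1595 CPM in leaf. The tissues did not overlap, and stamens stood between gynoecium and leaf. AGT1 was 3.52-fold lower in stamens than in leaf (log2 fold change -1.82, SE 0.032, edgeR adjusted p = 1.77e-51) and 16.6-fold lower in gynoecium than in leaf (-4.05, adjusted p = 1.44e-67).

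GLDP1 (AT4G33010) and GLDP2 (AT2G26080) encode the P protein of glycine decarboxylase, the subunit that releases carbon dioxide from glycine in the mitochondrion. Their coding sequences were 85.8% identical, with 440 of 3106 aligned bases different, and 0.172% of the 50-base exon windows of GLDP1 and 0.155% of those of GLDP2 occur elsewhere in the genome. Coding bases 385 to 444 of GLDP1 and 403 to 462 of GLDP2 are shown because the tissues differ in which copy leads. In these 60 bases 9 differ.
GLDP1, chromosome 4: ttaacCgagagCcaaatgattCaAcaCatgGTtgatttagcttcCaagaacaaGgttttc
GLDP2, chromosome 2: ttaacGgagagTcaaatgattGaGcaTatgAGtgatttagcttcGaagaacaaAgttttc

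GLDP1 was expressed at 87.6, 90.5 and 83.3 CPM in stamens and at 65.5, 64.1 and 62.0 CPM in gynoecium, against 2364, 2363 and 2361 CPM in leaf. GLDP2 had 259, 267 and 269 CPM in stamens and 185, 184 and 189 CPM in gynoecium, against 523, 525 and 524 CPM in leaf. Neither gene overlapped between tissues, but GLDP1 was 27.1-fold lower in stamens than in leaf and 37.0-fold lower in gynoecium than in leaf, while GLDP2 was 1.98-fold lower in stamens and 2.81-fold lower in gynoecium. The log2 fold changes of GLDP1 were -4.76 for stamens over leaf (SE 0.038, edgeR adjusted p = 2.13e-70) and -5.21 for gynoecium over leaf (adjusted p = 8.9e-72). Those of GLDP2 were -0.98 (SE 0.033, adjusted p = 5.21e-36) and -1.49 (adjusted p = 1.39e-45). In a test against a 2-fold change, the call of GLDP2 in stamens was lost (adjusted p = 0.688). GLDP1 shares 0.39% of its exon bases with AT4G33000, a gene model on the opposite strand.

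The P protein copy with the larger share differed between the floral organs and leaf. The log2 ratio of GLDP2 to GLDP1 counts was 1.61 ± 0.074 in stamens and 1.54 ± 0.058 in gynoecium, against -2.17 ± 0.0042 in leaf (SD, n = 3 each). Per length, GLDP2 made up 73.3 ± 0.994% of the summed P protein FPKM in stamens and 72.5 ± 0.805% in gynoecium, against 16.7 ± 0.0405% in leaf. Each floral organ differed from leaf with no overlap (exact two-sided permutation p = 0.1 on the ratio, the smallest possible). The ratio in stamens and the ratio in gynoecium overlapped (exact p = 0.4), with a difference of 0.061 on the log2 scale.

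SHM1 (AT4G37930) encodes the mitochondrial serine hydroxymethyltransferase, which joins glycine with the one-carbon unit released by glycine decarboxylase to form serine. It was expressed at 85.7, 90.1 and 84.6 CPM in stamens and at 47.4, 43.0 and 42.5 CPM in gynoecium, against 2007, 1889 and 1999 CPM in leaf. The groups did not overlap. SHM1 was 22.6-fold lower in stamens than in leaf (log2 fold change -4.50, SE 0.04, edgeR adjusted p = 6.2e-68) and 44.3-fold lower in gynoecium than in leaf (-5.47, adjusted p = 7.51e-71).

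HPR1 (AT1G68010) encodes the peroxisomal hydroxypyruvate reductase, which makes glycerate from the hydroxypyruvate left by AGT1. Its level was 109, 109 and 106 CPM in stamens and 62.1, 60.4 and 59.8 CPM in gynoecium, against 883, 822 and 844 CPM in leaf. The groups did not overlap, with leaf highest and gynoecium lowest. HPR1 was 7.86-fold lower in stamens than in leaf (log2 fold change -2.98, SE 0.037, edgeR adjusted p = 8.87e-60) and 14.0-fold lower in gynoecium than in leaf (-3.80, adjusted p = 1.46e-64).

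The comparison of stamens with leaf asked how the male organ differs from vegetative tissue. Of the 9 photorespiration genes tested, 8 were lower and 1, GOX3, was higher in stamens than in leaf. Across all 20827 genes tested, 87.9% were called, with 37.9% of the genes tested lower and 50% higher, so being called at all says little about a gene here. Lack of overlap held for all 9 photorespiration genes tested but was not counted over all genes. The median log2 fold change of the 9 genes was -3.45, beside 0.23 over all genes, and 7 of the 9 were lower by at least 2-fold, beside 23.7% of all genes.

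In the comparison of gynoecium with leaf, 8 of the 9 tested genes were again lower and GOX3 was higher, with a median log2 fold change of -4.05 beside 0.00 over all genes. Of all genes tested, 82.5% were called, 40.0% lower and 42.6% higher, and library totals in place of scaling factors moved the share of higher calls among all calls to 67.3% against 51.6%, while 8 of the 9 genes still fell and GOX3 was still higher. Of the 9 genes, 8 were lower by at least 2-fold, beside 25.6% of all genes. Both comparisons use the same leaf libraries, so they are not independent of each other.

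**Figure D2:**
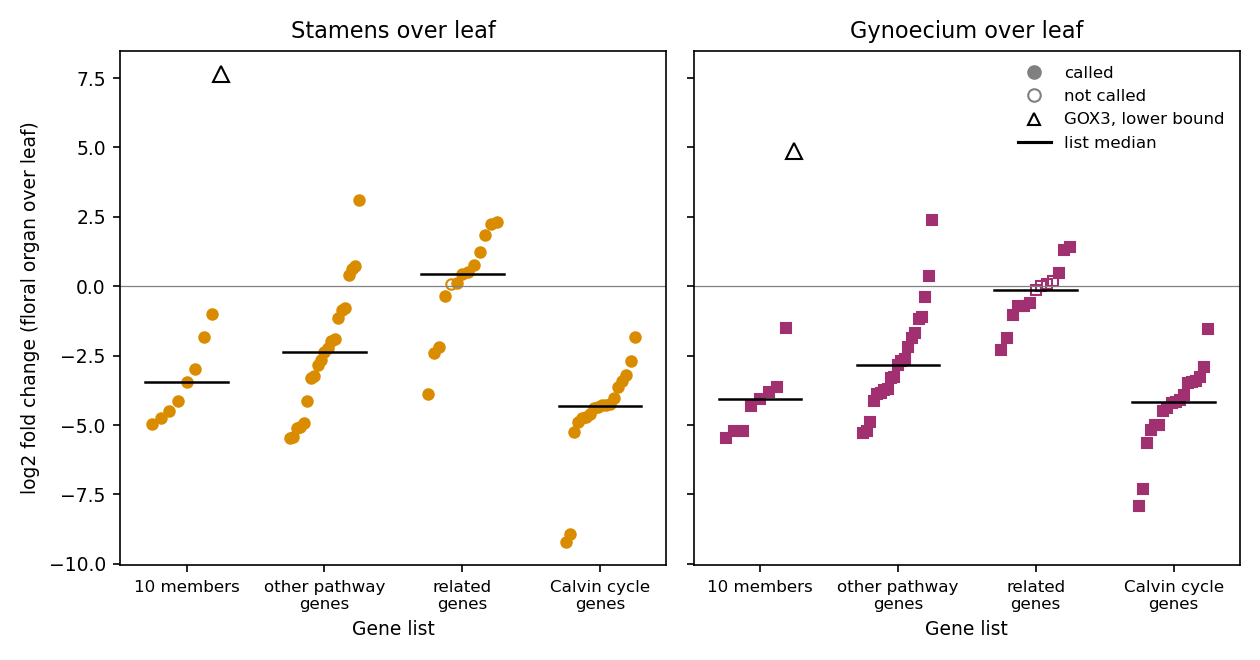
Log2 fold change of stamens over leaf (left) and gynoecium over leaf (right) for the photorespiration genes, other genes of the pathway, related genes and Calvin cycle genes that were tested. Each point is 1 gene, filled where called, the triangles are lower bounds for GOX3, and black lines are list medians. The medians of the photorespiration genes are -3.45 and -4.05, and those of the Calvin cycle genes -4.31 and -4.19.

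The rest of the pathway mostly followed the same direction. Of 21 other genes of photorespiration, 17 were lower and 4 higher in stamens than in leaf (median log2 fold change -2.38). In gynoecium, 19 of them were lower and 2 higher than in leaf (median -2.84). Over all genes tested, 37.9% were lower in stamens and 40.0% lower in gynoecium. GLU1, the leaf ferredoxin-dependent glutamate synthase that reassimilates ammonia, had 29.4 CPM in stamens and 25.7 CPM in gynoecium, against 1006 CPM in leaf (log2 fold changes -5.10 and -5.29, edgeR adjusted p = 3.26e-68 and 3.31e-69). PLGG1, the chloroplast transporter that carries glycolate and glycerate, had 12.4 CPM in stamens and 11.3 CPM in gynoecium, against 415 CPM in leaf, the log2 fold change of gynoecium over leaf being -5.20 (edgeR adjusted p = 5.35e-66). All 18 Calvin cycle genes were lower in both organs, with medians of -4.31 in stamens and -4.19 in gynoecium. GAPB, a chloroplast glyceraldehyde phosphate dehydrogenase and the most abundant of the list in leaf, stood at 227 CPM in stamens and 206 CPM in gynoecium, against 6644 CPM in leaf (edgeR adjusted p = 6.6e-73 and 7.33e-73).

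The pathway genes that were higher in a floral organ were copies of enzymes whose other copies were lower. GLDH2, a copy of the H protein of glycine decarboxylase, had 17.5 CPM in stamens and 10.6 CPM in gynoecium, against 2.01 CPM in leaf (log2 fold changes 3.12 and 2.40, edgeR adjusted p = 3.44e-28 and 1.33e-21). GLDH1, another copy, had 15.2 CPM in stamens and 38.3 CPM in gynoecium, against 667 CPM in leaf (edgeR adjusted p = 1.2e-55 and 2.34e-53). PMDH1 and PMDH2 are peroxisomal malate dehydrogenases, which supply reducing power to HPR1. PMDH1 was higher in stamens, at 263 CPM, than in leaf, at 157 CPM (log2 fold change 0.74, edgeR adjusted p = 3.87e-27), and had 120 CPM in gynoecium, whereas PMDH2 had 25.2 CPM in stamens and 36.2 CPM in gynoecium, against 1083 CPM in leaf (edgeR adjusted p = 9.53e-70 and 5.35e-69). HPR3, a further hydroxypyruvate reductase, had 8.83 CPM in stamens and 7.43 CPM in gynoecium, against 5.70 CPM in leaf (log2 fold changes 0.63 and 0.38, edgeR adjusted p = 4.55e-05 and 0.0105), and the call in gynoecium was lost without leaf replicate 1 (adjusted p = 0.0596). SHM2, a second mitochondrial serine hydroxymethyltransferase, was the fourth gene higher in stamens than in leaf (log2 fold change 0.41, edgeR adjusted p = 9.49e-11).

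Per length of transcript, GLDH2, SHM2 and PMDH1 made up a larger part of their enzyme in the floral organs than in leaf. The share of HPR3 was not computed. GLDH2 was 35.3 ± 0.694% of the H protein FPKM in stamens and 12.6 ± 0.685% in gynoecium, against 0.171 ± 0.0223% in leaf. SHM2 was 44.7 ± 1.06% of the mitochondrial serine hydroxymethyltransferase FPKM in stamens and 35.4 ± 1.99% in gynoecium, against 2.61 ± 0.0622% in leaf. PMDH1 was 91.0 ± 0.368% in stamens and 76.1 ± 0.728% in gynoecium, against 12.3 ± 0.23% in leaf. These families were chosen after their values were seen, and the shares are given with no test. The summed FPKM of each was higher in leaf, from 3.76 times the stamen sum for malate dehydrogenase to 20.01 times for the H protein. Relative to the gynoecium sum, it was from 5.22 times for malate dehydrogenase to 18.8 times for mitochondrial serine hydroxymethyltransferase. FPKM rest on library totals without TMM factors, so these folds are not on the scale of the CPM folds. Library totals shifted the median over all genes by 0.234 in stamens over leaf and 0.644 in gynoecium over leaf (log2).

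**Figure D3:**
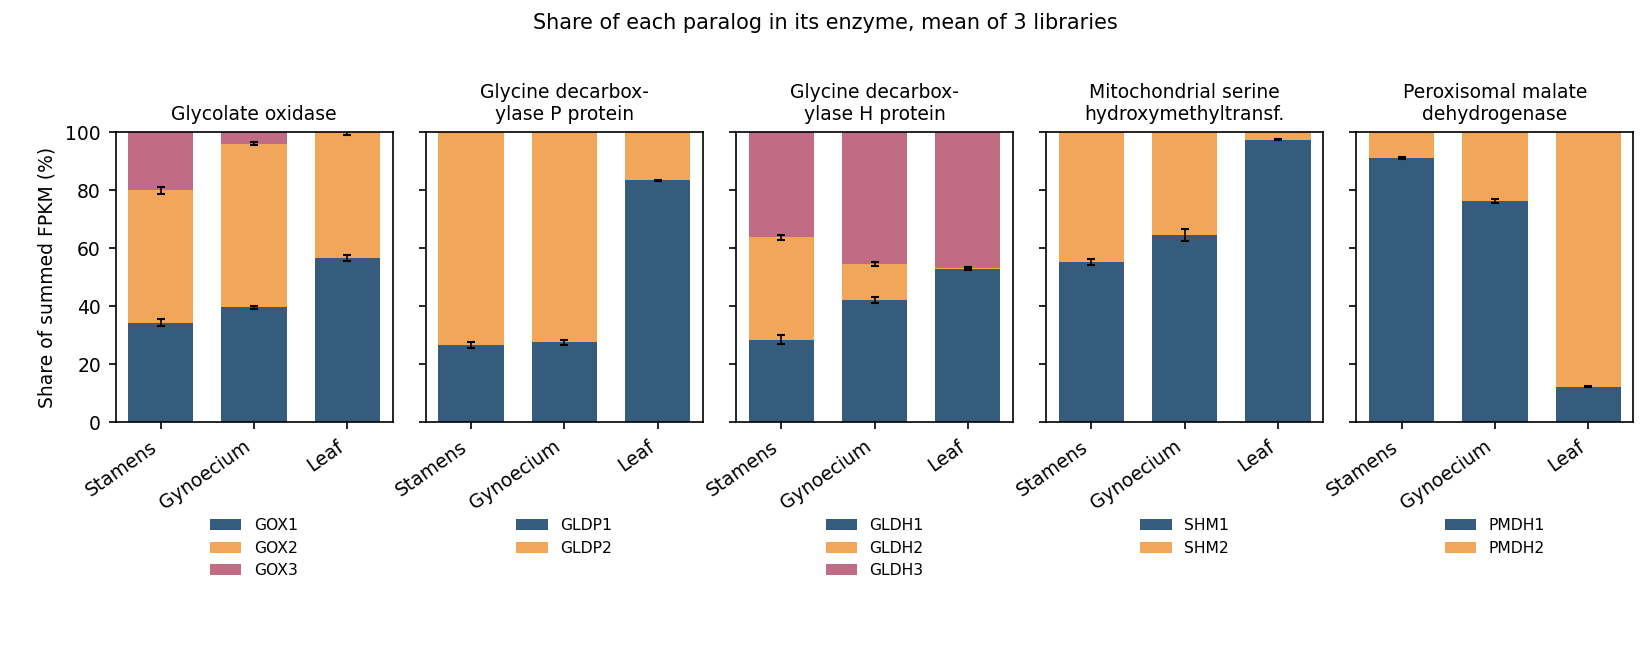
Share of each gene copy in the summed FPKM of its enzyme in stamens, gynoecium and leaf, in percent, as means of 3 libraries with error bars of 1 SD at the boundary of each segment. GLDP2, GLDH2, SHM2 and PMDH1 take larger shares in the floral organs than in leaf, and GOX3 is listed at 0 in leaf.

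Related genes with other or unclear roles were split in direction. Of 13 tested, 8 were higher, 4 lower and 1 not called in stamens relative to leaf (median log2 fold change 0.44), and 3 were higher, 6 lower and 4 not called in gynoecium relative to leaf (median -0.13). In gynoecium the split depended on the scaling, with 7 higher and 3 lower on library totals. Among all genes tested, 50% were higher and 37.9% lower in stamens than in leaf with TMM factors. The shares for gynoecium over leaf were 42.6% and 40.0%. Whether the related genes differed from all genes in these shares was not tested. CAT1, a catalase, had 1063 CPM in stamens and 137 CPM in gynoecium, against 223 CPM in leaf, and CAT3, another catalase, had 393 CPM in stamens and 1179.95 CPM in gynoecium, against 5728 CPM in leaf. AGT3, an aminotransferase related in name to AGT1, had 522 CPM in stamens and 69.0 CPM in gynoecium, against 106 CPM in leaf. CAT1 and AGT3 were higher in stamens than in leaf (log2 fold changes 2.25 and 2.30, edgeR adjusted p = 2.17e-54 and 3.34e-52), and CAT3 was lower in both organs (-3.87 and -2.28, adjusted p = 3.71e-68 and 1.67e-57).

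Several relatives were higher in 1 floral organ or both. GLU2, a second glutamate synthase, had 95.9 CPM in stamens and 71.7 CPM in gynoecium, against 26.9 CPM in leaf (log2 fold changes 1.84 and 1.42, edgeR adjusted p = 7.51e-38 and 9.23e-32). HAOX2, a hydroxyacid oxidase related to the GOX genes, was higher in gynoecium, at 39.6 CPM, than in leaf, at 15.9 CPM (log2 fold change 1.32, edgeR adjusted p = 3.16e-23), while HAOX1 had 7.08 CPM in stamens, against 32.7 CPM in leaf (-2.21, adjusted p = 9.91e-31). HAOX1 and HAOX2 have 3.87% and 3.05% of their 50-base exon windows elsewhere in the genome, and HAOX1 shares 14.4% of its exon bases with other gene models, so their counts are uncertain. SHM4, a further serine hydroxymethyltransferase, had 682 CPM in stamens and 142 CPM in gynoecium, against 289 CPM in leaf. It was higher in stamens than in leaf (1.24, adjusted p = 2.64e-41) and lower in gynoecium than in leaf (-1.03, adjusted p = 7.14e-36). DIT2.2, a dicarboxylate transporter with 16.7% of its exon bases in an opposite-strand gene model, was lower in stamens and in gynoecium than in leaf (-2.42 and -1.87, adjusted p = 1.25e-47 and 1.32e-43). SHM3, with 54.3 CPM in stamens against 51.5 CPM in leaf, was not called in stamens (adjusted p = 0.197, but 8.76e-07 on library totals) and was higher in gynoecium, at 71.9 CPM (0.48, adjusted p = 1.06e-12). AGT2, with 88.6 CPM in gynoecium against 87.2 CPM in leaf, was not called (adjusted p = 0.659), but on library totals it was called higher in gynoecium (0.67, adjusted p = 4.95e-20). SHM5 had 0 counts in every library.

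The comparison of stamens with gynoecium asked how the male and the female organ differ. All 9 tested photorespiration genes were called higher in stamens, with a median log2 fold change of 0.51 beside 0.09 over all genes. Of all genes tested, 85.3% were called, 46.3% higher and 39.0% lower. AGT1 and GOX3 stood apart, at 4.72-fold (log2 fold change 2.24, SE 0.035, edgeR adjusted p = 4.01e-54) and 6.83-fold (2.77, SE 0.094, adjusted p = 3.86e-35) higher in stamens, and the direction of both held under every scaling tried. SHM1 and HPR1 were 1.96-fold and 1.78-fold higher (0.97 and 0.83, adjusted p = 5.49e-29 and 1.86e-27), also under every scaling.

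Most of the smaller differences depended on the scaling of the libraries. GLDP2 was higher in stamens by 0.51 and GLDP1 by 0.45 on the log2 scale (edgeR adjusted p = 3.85e-21 and 1.11e-15). GLDP2 kept its direction and call under every scaling, but GLDP1 was not called on library totals (0.04, adjusted p = 0.36). GOX1, GOX2 and GGT1 were higher in stamens by 0.27, 0.17 and 0.17 (adjusted p = 7.66e-07, 1.54e-04 and 1.11e-05), and on library totals they were lower in stamens, with log2 fold changes of -0.14, -0.24 and -0.24. TMM factors were 0.956 to 0.966 in stamens and 1.27 to 1.28 in gynoecium, and with library totals the median over all genes shifted by -0.41 (log2). The split of the 9 genes was 9 higher and 0 lower with TMM factors, 7 and 0 with upper quartile factors and 5 and 3 with library totals. Among all calls, 54.3% were higher in stamens with TMM factors, 48.6% with upper quartile factors and 39.8% with library totals. In a test against a 2-fold change, 2 of the 9 genes, GOX3 and AGT1, were called. The share of all genes called in that test was not counted. With TMM factors, 28.08% of all genes tested were called higher in stamens by at least 2-fold and 18.3% lower. A 2-fold difference was thus common among all genes.

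**Figure D4:**
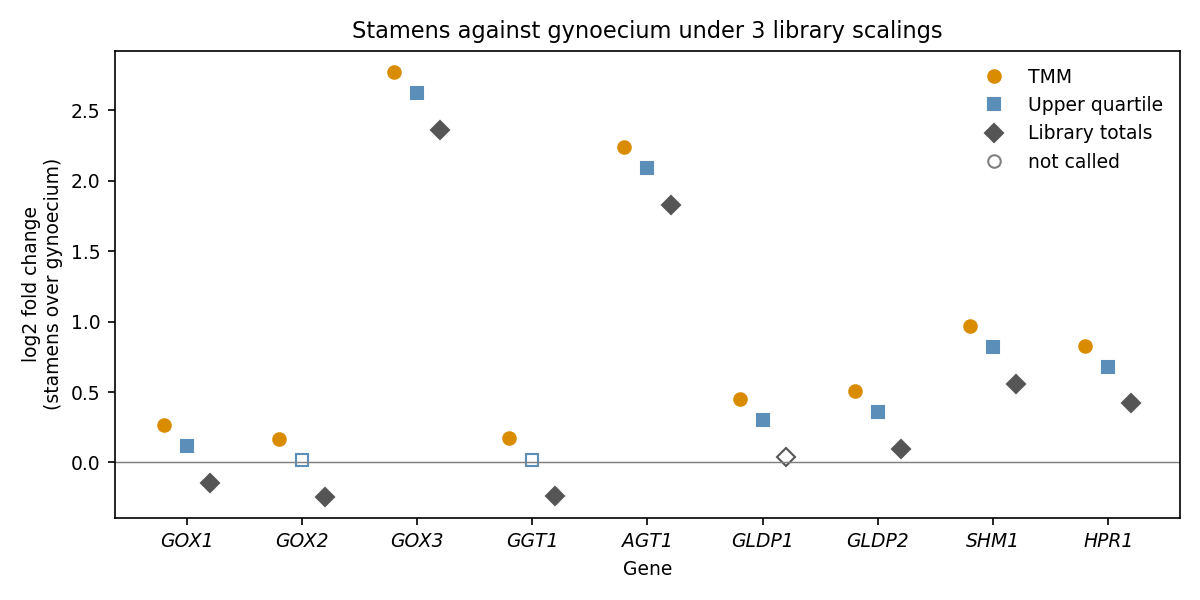
Log2 fold change of stamens over gynoecium for the 9 tested photorespiration genes with TMM factors (circles), upper quartile factors (squares) and library totals (diamonds), filled where called. GOX3, AGT1, SHM1, HPR1, GLDP2 and GLDP1 lie above 0 under all 3 scalings, GLDP1 without a call on library totals. GOX1, GOX2 and GGT1 lie below 0 on library totals.

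Of the 21 other pathway genes, 13 were higher, 4 lower and 4 not called in stamens relative to gynoecium. On library totals the split became 7 higher and 10 lower. Over all genes tested, 46.3% were higher and 39.0% lower with TMM factors. GGT2, a second glutamate:glyoxylate aminotransferase, had 58.8 CPM in stamens and 18.3 CPM in gynoecium (log2 fold change 1.68, edgeR adjusted p = 1.46e-35). SHM2 had 80.1 CPM in stamens and 27.6 CPM in gynoecium (1.53, adjusted p = 3.38e-35), and PMDH1 was 2.2-fold higher in stamens (1.14, adjusted p = 4.97e-37). GLDH1, GLDH3 and PMDH2 were lower in stamens (-1.33, -1.08 and -0.52, adjusted p = 5.17e-24, 2.03e-24 and 2.19e-13). HPR2, a cytosolic hydroxypyruvate reductase, had 82.8 CPM in stamens and 84.1 CPM in gynoecium and was not called (adjusted p = 0.621), but on library totals it was called lower in stamens (log2 fold change -0.43, adjusted p = 6.58e-14).

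Of the 13 related genes tested, 7 were higher, 5 lower and 1 not called in stamens relative to gynoecium, a split that became 5 higher and 6 lower on library totals. CAT1 was 7.75-fold, AGT3 7.55-fold and SHM4 4.82-fold higher in stamens (edgeR adjusted p = 3.02e-60, 1.19e-57 and 7.1e-55), and HAOX2, CAT3 and HAOX1 were lower in stamens (log2 fold changes -1.65, -1.59 and -1.50, adjusted p = 5.52e-28, 1.91e-48 and 3.51e-22). Of the catalase FPKM, CAT1 made up 65.4 ± 0.196% in stamens, 11.9 ± 0.121% in gynoecium and 4.90 ± 0.0993% in leaf, and CAT3 15.9 ± 0.215%, 67.1 ± 0.415% and 82.9 ± 0.236%. CAT2, the catalase among the other pathway genes, made up 18.7 ± 0.111% in stamens, 21.0 ± 0.305% in gynoecium and 12.2 ± 0.176% in leaf. Of the 18 Calvin cycle genes, 6 were higher and 9 lower in stamens than in gynoecium with TMM factors. That split was 3 and 11 with upper quartile factors and 2 and 13 with library totals. Beside the related genes and the Calvin cycle genes, 46.3% of all genes tested were higher and 39.0% lower with TMM factors.

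Levels of different genes can be compared per length only, as FPKM. In stamens AGT1 came first, at 207 ± 3.81 FPKM, followed by GGT1 at 100.02 ± 0.67, GLDP2 at 64.1 ± 1.0, HPR1 at 57.9 ± 1.12, GOX2 at 46.3 ± 1.9, SHM1 at 41.9 ± 1.26 and GOX1 at 34.8 ± 0.384 (SD, n = 3). GLDP1, at 23.3 ± 0.939, and GOX3, at 20.4 ± 2.11, overlapped. In gynoecium GGT1 came first, at 118 ± 5.29 FPKM, followed by GLDP2 at 59.9 ± 1.04, AGT1 at 58.4 ± 0.765 and GOX2 at 54.8 ± 0.666, and GOX3 was lowest of the 9 at 3.96 ± 0.328. In leaf GGT1, at 927 ± 26.6 FPKM, and GOX1, at 915 ± 63, overlapped, and SHM1 at 806 ± 26.7, GOX2 at 699.8 ± 15.1, AGT1 at 620.4 ± 13.3, GLDP1 at 538 ± 0.32, HPR1 at 387 ± 13.8 and GLDP2 at 108 ± 0.367 followed without overlap. GLDP2 thus stood near the top of the order in both floral organs and last of the genes detected at that scale in leaf.

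By their pattern over the 3 tissue means, the non-member genes closest to the median of the photorespiration genes were SEP2 (AT2G21970, by its RefSeq symbol, not the floral SEPALLATA gene), HDA14, IMPL1, Tic62 and AMY2, at distances of 0.199 to 0.228 on the log2 scale among 4428 genes with a symbol and at least 20 CPM in leaf. GOX3 lay farthest from that median, at a distance of 9.05, and GLDP2 came next at 1.99. A prior count of 2 was added before logs were taken. It set the leaf value of GOX3, which had 0 counts there, and so the size of its distances. The minimum of 20 CPM leaves out every gene at 0 in leaf. With the minimum of 20 CPM in leaf, the genes closest to GOX3 were ASN1, ERD5, TT4, GLN1.3 and MBP2, at distances of 2.82 to 3.66. Without that minimum, a choice made after the values were seen, they were ACBP5, SKS2, GH3.3, SWEET10 and PTR5, at distances of 0.183 to 0.342 among 8895 genes, and all 5 had 0 counts in leaf. Their leaf values were set by the prior count as well, so that part of the likeness was fixed by the floor. Each distance rests on 3 tissue means.

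Promoters were read as the 250 bases before each gene start. The G-box, CACGTG on either strand, was found in the promoters of 3 of the 10 genes, GOX3, GGT1 and GLDP1, beside 6.49% of 27443 promoters, and the I-box, GATAAG on either strand, in that of 1, GLDP2, beside 12.3%. The promoters of GOX3, which was higher in both floral organs than in leaf, and of GLDP1, which was lower, are shown because both hold the G-box, with 2 copies in GOX3 and 1 in GLDP1. Capitals mark the G-box, and both genes lie on the minus strand.
GOX3 promoter, chromosome 4: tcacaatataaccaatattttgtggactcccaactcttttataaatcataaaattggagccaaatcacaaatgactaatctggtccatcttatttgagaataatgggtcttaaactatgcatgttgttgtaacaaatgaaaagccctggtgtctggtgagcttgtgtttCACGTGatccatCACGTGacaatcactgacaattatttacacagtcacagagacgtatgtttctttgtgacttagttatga
GLDP1 promoter, chromosome 4: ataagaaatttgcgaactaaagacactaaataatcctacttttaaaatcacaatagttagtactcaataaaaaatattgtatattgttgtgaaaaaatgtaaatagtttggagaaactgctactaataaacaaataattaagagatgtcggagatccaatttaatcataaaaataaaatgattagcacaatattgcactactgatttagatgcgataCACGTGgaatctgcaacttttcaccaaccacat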

How the data were processed

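RNA was measured in 9 libraries. The authors deposited read counts per locus as whole numbers and a table of FPKM, which are counts per length and library total. In that table the length of 99.4% of 24180 loci equalled the union of RefSeq exons within 1 base, so the FPKM made by the authors are per exon length. Per the submitters' processing notes, Bowtie2 2.2.3, HISAT2 2.1.0, TopHat2, HTSeq 0.6.0 and TAIR10 were used, with no role or order. Treatment of reads with several matches and the strand setting are not given in the sources used here.

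Counts were fitted in edgeR 4.0.16 (R 4.3.3) with filterByExpr (20827 of 32833 loci kept, 9 of the 10 members), TMM factors, and robust quasi-likelihood tests with 1 mean per group over all 9 libraries, which leaves 6 residual degrees of freedom. A gene was called at a p under 0.05 after Benjamini-Hochberg adjustment over all genes. Python 3.11.15, pandas 2.3.3, numpy 2.4.6, scipy 1.17.1, matplotlib 3.10.9 and Biopython 1.88 were used for the rest. A fold against a group at 0 was taken against 3 counts per library. Other fits used DESeq2 1.42.0, limma 3.58.1 (voom, or log2 of FPKM plus 1 or 0.1), other scalings and filters, a replicate block, summed copies, a 2-fold test and each library left out.

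Members and lists were chosen with earlier results of these data known. Named genes were all members and, per comparison, the 3 other pathway genes and relatives changed most in each direction with at least 5 CPM in a group, the uncalled one of highest level, and the Calvin cycle gene highest in leaf. SHM2 in stamens over leaf, the paralog families and the catalase shares were added after values were seen. A promoter table was planned, and promoters were read instead from the TAIR10.1 genome and RefSeq annotation, which held all 10 members by locus. No coordinates are printed, since the counts rest on TAIR10.

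Replicates were compared. Pairs within a group differed by 1.78 to 3.17 times counting noise (chi-square per degree of freedom), so no library was a copy of another. Such values cannot tell whether libraries came from the same plants or the same RNA. On simulated data for stamens and leaf, 50 genes were changed at each size. The test found 30 changed by 1.25-fold, 36 by 1.5-fold, 42 by 2-fold and 47 by 4-fold. Of 19755 unchanged genes, 13 were called. The simulation gave every gene the same spread (3.62%) and no other change between tissues. In the real comparison 87.9% of genes were called, so the simulation does not give the share of changes found or of false calls there.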

Additional observations from a re-analysis of the deposited data

Results flagged for a closer look

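With TMM factors, the change against leaf differed between stamens and gynoecium for all 9 photorespiration genes tested. The edgeR test of stamens against gynoecium was used, which is the difference of the changes against leaf. On the log2 scale, stamens minus gynoecium, the difference was 2.77 for GOX3, 2.24 for AGT1, 0.97 for SHM1 and 0.83 for HPR1. It was 0.51 for GLDP2, 0.45 for GLDP1, 0.27 for GOX1, 0.17 for GOX2 and 0.17 for GGT1. The last 3 took the other sign on library totals, and of all genes tested 85.3% were called in the same test. With upper quartile factors 7 of the 9 genes were called, without GOX2 and GGT1. GLDP1 was not called on library totals (edgeR adjusted p = 0.36) or in the limma fits on FPKM, nor was GOX1 with limma-voom.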

How the results depend on the processing

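Against leaf, all 18 member results kept their direction under every alternative run, and 17 kept their call, the exception being GLDP2 in stamens under the 2-fold test. Of 69 results for named genes, 49 kept direction and call under every alternative and 7 reversed under at least 1. For stamens over gynoecium, library totals and limma on log2 of FPKM plus 1 and plus 0.1 gave -0.14, -0.14 and -0.14 for GOX1, -0.24, -0.24 and -0.24 for GOX2, -0.24, -0.24 and -0.24 for GGT1, -0.33, -0.32 and -0.33 for AGT2, and -0.27, -0.27 and -0.27 for GAPB. Upper quartile factors gave -0.070 for AGT2 and -0.014 for GAPB. In the main fit AGT2 was at 0.080, not called, and GAPB at 0.14. Library totals and upper quartile factors shift all genes together, by -0.41 and -0.15. AGT2 was called higher in stamens, at 0.091, with the filter of at least 1 CPM in 3 libraries. It was also called higher on the 6 libraries of the comparison alone (0.092) and without gynoecium replicate 1 (0.107) or 2 (0.110). Genes not called with TMM factors were called under upper quartile factors, library totals and limma on log2 of FPKM plus 1 and plus 0.1: AGT2 in gynoecium over leaf at 0.12, 0.67, 0.65 and 0.67, and HPR2 in stamens over gynoecium at -0.17, -0.43, -0.43 and -0.43. With limma-voom, GOX1 in stamens over gynoecium was not called (adjusted p = 0.0991). Near 0, AGT2 in gynoecium over leaf was -0.0058 without leaf replicate 2, and HPR2 in stamens over gynoecium was 0.0058 and 0.0069 without gynoecium replicates 1 and 2, in a range of -0.0356 to 0.0069 over the libraries left out.

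The 2-fold test called fewer genes: 7 and 4 relatives for stamens and gynoecium against leaf, and, for stamens against gynoecium, 2 members, 4 other pathway genes, 6 relatives and 1 Calvin cycle gene. Calls over all genes were not counted under the 2-fold test. In the main fit, 33.49% of all genes were called higher and 23.75% lower by at least 2-fold in stamens over leaf. These shares were 26.57% and 25.62% in gynoecium over leaf, and 28.08% and 18.3% in stamens over gynoecium. Leaving out 1 library kept 9 of 9 members called in each comparison. The labels do not say that replicate numbers pair libraries. Deviations of same-numbered libraries correlated at -0.052 to 0.054, which with 3 libraries a group cannot exclude a shared plant or batch. With the replicate block 9 members were called in each comparison, as without it. PGLP1 was tested with no filter or in DESeq2 only, where it was called lower in both organs than in leaf. GOX3 ratios in leaf could not be computed, and counts near 0 limit PGLP1.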
